A study of Mus musculus with 18 samples.

Results

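Cycling microglia of the mouse brain shortly before birth were described here as the cells of the embryonic day 18.5 (E18.5) brain that carried transcripts of 13 proliferation genes. Microglia are the resident macrophages of the brain. A well counted as a cell when 1 cell had been sorted into it and at least 600 unique molecular identifiers (UMIs, tags that mark single transcripts) were counted on genes. A cell was called cycling when it held 2 or more UMIs summed over Mki67, Top2a, Birc5, Cdca8, Tpx2, Ube2c, Ccnb1, Ccnb2, Cdc20, Plk1, Hist1h1a, Hist1h1b and Hist1h2ae. Of 1140 wells with 1 cell, 838 passed, and 238 of these (28.4%) were cycling. The comparison cells were the 408 cells of the same libraries with 0 such UMIs, called 0-UMI cells below, and the 192 cells with 1 UMI belonged to neither class. The whole series holds 2358 cells that pass the same minimum.

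The series profiled sorted myeloid cells by MARS-seq, a plate method that tags and sequences the 3′ ends of polyadenylated RNA of single cells. All mice were C57BL/6J and carried the CX3CR1-GFP reporter. The E18.5 brain cells (6 libraries on 3 plates) were sorted at intermediate CD45 and CD11B and positive for CX3CR1-GFP, as were adult brain cells (4 libraries). Brain cells at embryonic day 12.5 (E12.5, 4 libraries) were sorted as CD45+ CD11B+ CX3CR1-GFP+, so the gate differs between E12.5 and the later ages. The well annotation gives 1 subject number for all E18.5 libraries. Separate animals are therefore not distinguished. The p-values of genes measure how far the difference between classes varies from library to library, beside counting noise. Those of the shares of cells measure the spread between libraries. Either spread may be technical.

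A dividing cell copies its DNA in S phase, when histone proteins are made to package the new DNA, and then passes through G2 into mitosis, when a spindle of tubulin separates the chromosomes. Genes for mitosis are switched on late. Many of their promoters hold CHR elements, through which a repressor complex acts in resting cells, and CCAAT boxes, which are bound by the activator NF-Y. Microglia enter the brain early in the embryo and expand there by local division, and adult microglia divide slowly. Their survival and division depend on the receptor encoded by Csf1r. The known functions given below are background and not results.

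The 6 E18.5 libraries held from 115699 to 211983 UMIs in cells that passed. They gave 48, 30, 43, 38, 43 and 36 cycling cells in replicates 1 to 6, which is from 24.8% to 32.8% of the cells of a library. Cycling cells were deeper, with a median of 1189 UMIs against 976 in 0-UMI cells, and a deeper cell more easily reaches 2 UMIs. The part of depth in the gene results was not tested beyond the thinned values and the other minimum depths given below. In the thinned fits the classes were set anew from the thinned counts, so they do not hold the same cells. Of 36 wells of the whole series left empty, 2 held a UMI of the 13 genes, and the median total of the empty wells was 24 UMIs. All 192 cell barcodes recur in each of the 6 libraries by design, and 0 wells of a sequencing batch shared both pool and cell barcode. Pairs of E18.5 libraries differed by more than counting noise, with a chi-square over its degrees of freedom of 1.61 to 3.66, and each counts as 1 replicate.

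The cycling class is graded. It held a median of 4 UMIs of the 13 genes, with 80 cells at 2 UMIs, 108 at 3 to 9 and 50 at 10 or more, up to 65 in 1 cell. By kind of gene, 143 cycling cells held both mitotic and histone UMIs, 72 mitotic ones only and 23 histone ones only. Hist1h1b, a linker histone, was counted in 114 cycling cells (47.9%), Hist1h2ae, a core histone, in 102 (42.9%), and Mki67, the standard proliferation marker, in 65 (27.3%). The table joins Plk1, a mitotic kinase, with Dctn5, a dynactin subunit, in 1 row, and this row was counted in 93 cycling cells (39.1%). Without that row 35 of the 238 cells would fall below 2 UMIs. These values chose the cells and are given as a description.

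Genes that played no part in the choice followed the number of selecting UMIs. Lists of the cell division groups and of microglia groups were summed over all their rows, in UMIs scaled to a total of 1000000 (CPM) over the pooled cells of each class, with the 13 genes left out of the totals. A list of 76 rows for G2 and mitosis stood at 1502 CPM in cells with 0 selecting UMIs, 1939 with 1, 2396 with 2, 3642 with 3 to 4, 10349 with 5 to 9 and 16955 with 10 or more. Just outside and just inside the cut, cells with 1 and with 2 UMIs were therefore close, and most of the rise lay in cells with 5 UMIs or more. The S phase list (56 rows) stood at 1823, 1948, 2203, 2792, 5181 and 5989 CPM over the same steps. Histone and chromatin proteins (62 rows) ran from 4737 CPM at 0 to 21828 CPM at 10 or more. Lysosome and phagocytosis genes (43 rows) went the other way, from 108352 CPM at 0 to 76856 CPM at 10 or more, and homeostatic microglia genes (28 rows) from 68180 to 53256 CPM. These are pooled values with no test, and the steps differ in depth, with median totals from 976 to 1384 UMIs.

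**Figure D1:**
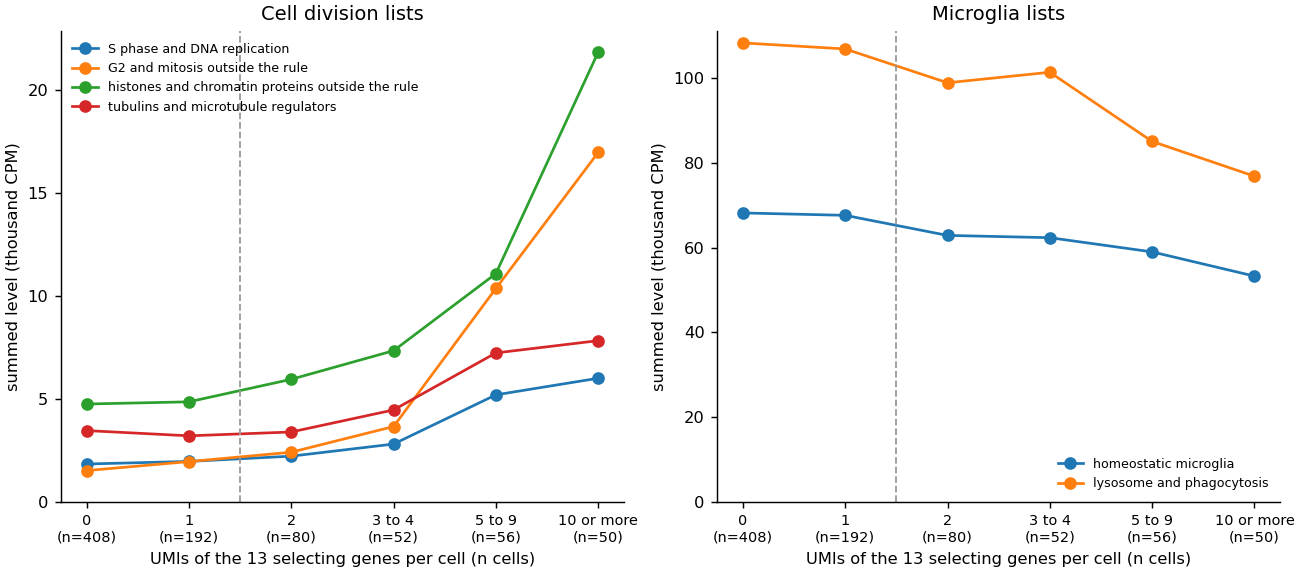
Summed level of gene lists (vertical axes, in units of 1000 CPM) against the number of UMIs of the 13 selecting genes in a cell (horizontal axes, with the number of cells), pooled over the 6 E18.5 libraries. The dashed line marks the cut at 2 UMIs. G2 and mitosis genes stand at 1502 CPM at 0 and 16955 CPM at 10 or more, and lysosome genes at 108352 and 76856 CPM.

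The 23 cycling cells with histone UMIs only carried few transcripts of the G2 and mitosis list. Their pooled G2 and mitosis level was 1740 CPM, near that of the 0-UMI cells (1502 CPM), against 5984 CPM in the 72 cells with mitotic UMIs only and 9712 CPM in the 143 cells with both. Their pooled S phase level was 2901 CPM, against 2294 CPM in the cells with mitotic UMIs only, 4813 CPM in those with both and 1823 CPM in the 0-UMI cells. The differences among these groups of cells were not tested.

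Cycling and 0-UMI cells were then compared within libraries. UMIs were summed per library and class, and edgeR's quasi-likelihood test was applied with the library as a block to the 4410 genes with at least 30 UMIs over both classes. Genes were called at a Benjamini-Hochberg adjusted p under 0.05. In such sums, more cells with a transcript and more transcripts per cell cannot be told apart. At this threshold 107 genes (2.43% of those tested) were called, 74 higher in cycling cells (1.68%) and 33 lower (0.748%). Of the 74, 61 were higher in all 6 libraries, a count among genes chosen for their rise. Among the 74, 54 belong to the 5 lists on cell division. These lists hold 35 (G2 and mitosis), 26 (S phase), 31 (histones and chromatin), 13 (tubulins) and 12 (cyclins) of the 4410 tested genes. Many of the 54 reached the minimum of 30 UMIs only through the cycling cells, so they could not have been called lower. Without the library as replicate block 67 genes were called (58 higher and 9 lower), and DESeq2 called 54 (49 and 5). A draw that thinned each cell to 600 UMIs set the classes anew, with 150 cycling and 532 0-UMI cells. There 26 of the 54 cell division genes could still be tested and 21 were called higher. In 67 of the tested genes (1.52%) the values of the 6 libraries did not overlap between the classes.

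**Figure D2:**
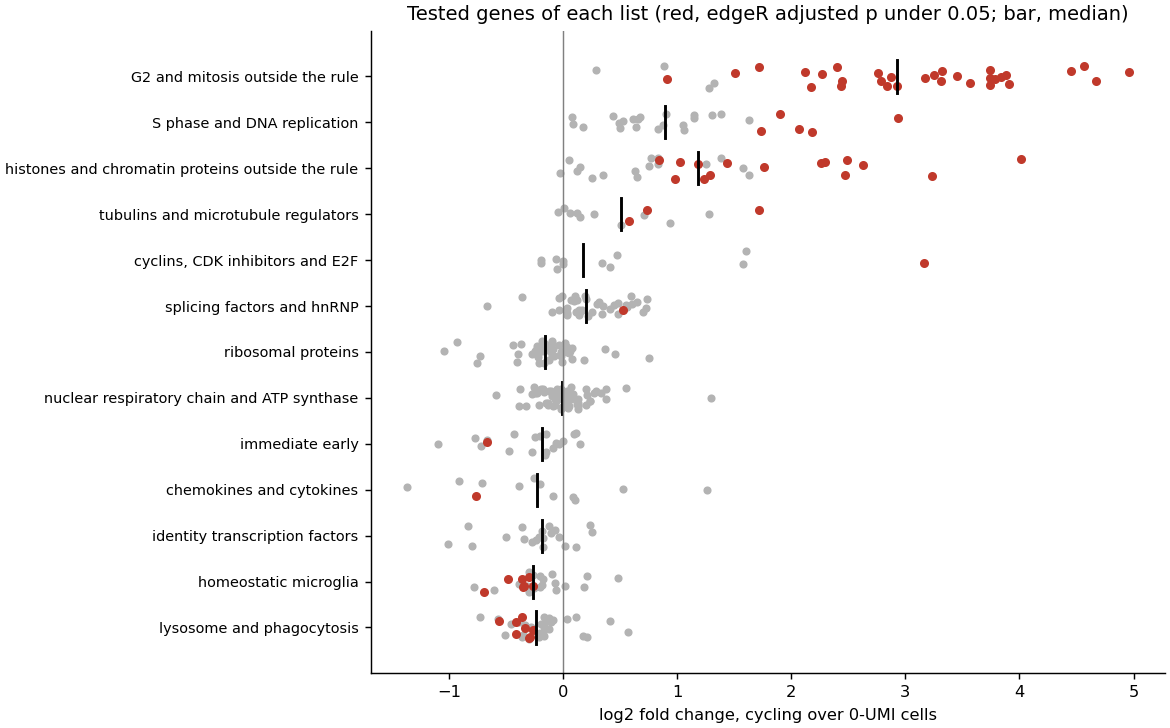
Log2 fold change of cycling over 0-UMI cells (horizontal axis) for the tested genes of 13 lists (rows), from 6 E18.5 libraries. Red points passed at an adjusted p under 0.05 (edgeR), grey points did not, and bars mark medians. The medians are -0.24 for lysosome and -0.27 for homeostatic genes. The G2 and mitosis median of 2.93 includes 28 of 35 genes that were tested only because of their level in cycling cells, and is 1.28 over the other 7.

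G2 and mitosis genes outside the 13 were higher in cycling cells. Of the 13 selecting genes 10 are mitotic, so the choice of cells itself favours this list. Their summed level in the 6 libraries had a lowest value of 5685, a median of 8098 and a highest of 9018 CPM in cycling cells, against 1075, 1552 and 1865 CPM in 0-UMI cells, with no overlap. Of 76 rows 35 were tested, and 31 rose and 0 fell, with a median log2 fold change of 2.93 beside -0.03 over all tested genes. Of these 35, 28 reached the minimum of 30 UMIs only through the cycling cells. These 28 could be called higher or not pass, but could not be called lower, so their direction is no result. Among the 7 that reach it at their 0-UMI level, 4 rose and the median was 1.28. When only cells with histone UMIs and no mitotic UMIs counted as cycling, 4 of the list could be tested, 0 passed, and their median was -1.30, below the -0.87 of all genes tested there. Cdk1, the kinase that drives entry into mitosis, lay at 161, 210 and 426 CPM (lowest, median and highest library) in cycling cells, against 27.2, 39.7 and 59.8 CPM in 0-UMI cells. All cycling values exceeded all 0-UMI values, and the log2 fold change was 2.43 ± 0.36 (SE, 6 libraries, edgeR adjusted p = 3.98e-09).

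Apart from Bub3 and the untested Ccna2, the genes named next from this list reached the minimum of 30 UMIs only through the cycling cells, and their values are given as a description of single genes. Cenpf, a large kinetochore-associated protein, lay at 129, 265 and 341 CPM in cycling cells, against 0, 6.43 and 53.4 CPM in 0-UMI cells, and rose by 3.91 ± 0.46 on the log2 scale (edgeR adjusted p = 1.67e-14). Cenpe, the kinesin that links kinetochores to microtubules, lay at 114, 145 and 241 CPM against 0, 11.2 and 13.6 CPM. Ndc80, the kinetochore's microtubule-binding subunit, had 33 UMIs in cycling cells and 1 in 0-UMI cells, a ratio of 45.0 with an exact 95% interval from 7.53 to 1830 that covers counting error only. In 1 of the 6 libraries Ndc80 was at 0 in both classes, so the classes overlap for this gene. Cdca2, a chromatin-bound phosphatase regulator, lay at 77.2, 155 and 466.2 CPM against 0, 5.22 and 35.6 CPM.

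Ckap2l, a mitotic spindle protein, lay at 121, 242 and 528 CPM in cycling cells, against 0, 0 and 38.6 CPM in 0-UMI cells, with no overlap (log2 fold change 4.45 ± 0.49, edgeR adjusted p = 1.16e-16). Prc1, which bundles the microtubules of the central spindle, had 35 UMIs in cycling cells and 1 in 0-UMI cells (ratio 47.7, exact 95% interval from 8.02 to 1937). Aurka, the spindle pole kinase, had 44 and 3 UMIs (ratio 19.99, interval from 6.41 to 101). For Fam64a, a mitotic regulator, the UMIs were 44 and 1 (ratio 60.0, interval from 10.2 to 2422). The kinesins Kif15, Kif18b and Kif23 had 29, 41 and 29 UMIs in cycling cells, against 2, 3 and 2 in 0-UMI cells. For Ckap2l, Prc1, Aurka, Fam64a and Kif15 every library of cycling cells stood above every library of 0-UMI cells, while the classes overlapped for Kif18b and Kif23. Bub3, a spindle checkpoint protein, did not pass, at 102, 134 and 186 CPM against 81.7, 105 and 125 CPM (log2 fold change 0.29 ± 0.35, edgeR adjusted p = 0.911). Ccna2, the cyclin of S phase and G2, was too rare to be tested, with 9 UMIs in cycling cells and 1 in 0-UMI cells.

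The promoters of the 31 G2 and mitosis genes called higher were read for the elements known from late cell cycle genes. These genes come from a list of known mitosis genes, of which 31 of 35 tested were called. The shares below therefore describe the list rather than the calls, and they were not compared with the rest of the list. Of the 31 genes that rose, 23 matched an entry of the RefSeq promoter table (build GRCm38.p6, 250 bases before to 50 bases from the start on, 1 start per gene). A CHR element (TTTGAA or TTCGAA, both strands) stood in 18 of the 23 (78.3%), against 19.4% of all 27025 promoters of the table. A CCAAT box (CCAAT, both strands) stood in 18 of the 23 (78.3%), against 37.9% of all. Both together stood in 15 of the 23 (65.2%), against 7.70% of all. An E2F element (TTTCGCG or TTTGGCG, both strands) stood in 5 of the 23 (21.7%), against 2.39% of all. Of the 5 S phase genes that rose, 2 held a CHR element, 2 a CCAAT box and 0 an E2F element of these letters. A match of letters is a description and not a bound site. The promoters of 4 of the largest rises, printed 5′ to 3′ on the strand of the gene with CHR elements and CCAAT boxes in capitals, show how these elements sit near the start. They lie at chr7:80294201-80294500 (Prc1, plus strand), chr2:129297163-129297462 (Ckap2l, minus), chr1:189688037-189688336 (Cenpf, minus) and chr17:71526808-71527107 (Ndc80, minus). Prc1 has a CCAAT box that begins 37 bases before the start and a CHR element that begins 5 bases before it. Ndc80 has 1 CHR element, 29 bases after the start, and no CCAAT box in this window.
Prc1: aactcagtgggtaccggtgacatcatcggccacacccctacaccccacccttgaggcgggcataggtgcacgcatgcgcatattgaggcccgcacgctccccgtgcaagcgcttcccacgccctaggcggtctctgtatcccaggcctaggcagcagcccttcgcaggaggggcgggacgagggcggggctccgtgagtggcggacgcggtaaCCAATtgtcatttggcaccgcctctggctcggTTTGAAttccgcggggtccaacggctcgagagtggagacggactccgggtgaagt
Ckap2l: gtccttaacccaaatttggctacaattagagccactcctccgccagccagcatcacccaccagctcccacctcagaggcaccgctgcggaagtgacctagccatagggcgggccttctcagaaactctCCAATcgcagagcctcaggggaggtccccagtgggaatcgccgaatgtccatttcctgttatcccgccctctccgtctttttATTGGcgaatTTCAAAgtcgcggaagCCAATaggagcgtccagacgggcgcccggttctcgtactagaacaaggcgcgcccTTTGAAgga
Cenpf: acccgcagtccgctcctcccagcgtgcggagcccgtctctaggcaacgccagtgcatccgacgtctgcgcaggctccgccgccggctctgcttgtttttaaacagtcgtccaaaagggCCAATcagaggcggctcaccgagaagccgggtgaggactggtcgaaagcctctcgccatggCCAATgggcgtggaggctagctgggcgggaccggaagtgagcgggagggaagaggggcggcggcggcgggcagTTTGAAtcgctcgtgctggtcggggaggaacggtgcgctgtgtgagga
Ndc80: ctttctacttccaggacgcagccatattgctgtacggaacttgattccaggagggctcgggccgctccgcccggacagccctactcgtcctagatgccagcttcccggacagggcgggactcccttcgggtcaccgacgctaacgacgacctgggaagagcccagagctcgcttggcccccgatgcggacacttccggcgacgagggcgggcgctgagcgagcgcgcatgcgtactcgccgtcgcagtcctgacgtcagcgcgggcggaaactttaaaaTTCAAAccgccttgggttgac

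S phase genes rose less. Their sum lay at 3278, 3689 and 6682 CPM in cycling cells, against 1456.5, 1837 and 2429 CPM in 0-UMI cells, with no overlap between the libraries. Of 56 rows 26 were tested, 5 rose and 0 fell, and the median log2 fold change was 0.89. All 5 are among the 12 that reached the minimum only through the cycling cells, and of the 14 that reach it at their 0-UMI level 0 passed. Tk1, thymidine kinase of the salvage route to DNA precursors, lay at 94.8, 240 and 442 CPM in cycling cells, against 17.8, 33.6 and 38.6 CPM in 0-UMI cells (log2 fold change 2.94 ± 0.38, edgeR adjusted p = 6.57e-12), with no overlap. Uhrf1, which carries DNA methylation over to new strands, Rfc5, a subunit of the clamp loader, Asf1b, a histone chaperone, and Fen1, the flap nuclease, rose by 1.90 ± 0.58, 2.19 ± 0.65, 2.06 ± 0.59 and 1.73 ± 0.50 on the log2 scale. Their edgeR adjusted p-values ran from 0.0253 to 0.0479, close to the threshold.

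The replication clamp and helicase genes did not pass. Pcna, the clamp, lay at 90.2, 224 and 342 CPM in cycling cells, against 81.7, 128 and 146 CPM in 0-UMI cells, higher in 5 of 6 libraries (log2 fold change 0.61 ± 0.31, edgeR adjusted p = 0.515). Mcm6, a helicase subunit, lay at 100, 220 and 435 CPM against 68.1, 102 and 232 CPM (edgeR adjusted p = 0.142). For Mcm5, another helicase subunit, the values were 57.9, 101 and 249 CPM against 64.3, 94.8 and 178 CPM, which overlap over most of their range.

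Histones and chromatin proteins outside the 13 rose in 15 of 31 tested of 62 rows, with 0 lower and a median log2 fold change of 1.18. Their sum lay at 8092, 11677 and 12370 CPM in cycling cells, against 4002, 4470 and 5545 CPM in 0-UMI cells, with no overlap. Here 22 of the 31 reach the minimum at their 0-UMI level, and 12 of these rose. Hmgb2, a high mobility group protein of dividing cells, lay at 417, 486 and 559 CPM in cycling cells, against 13.6, 78.3 and 207 CPM in 0-UMI cells (log2 fold change 2.47 ± 0.27, edgeR adjusted p = 8.83e-17). H2afx, the histone variant marked at DNA breaks, lay at 307, 486 and 653 CPM against 35.6, 104 and 129 CPM (2.29 ± 0.26). Neither gene overlapped between the classes.

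Core histone genes of the large cluster rose as well. Most transcripts of such genes lack a poly(A) tail, so a poly(A) method reads only part of them, and near-identical copies may share reads. Hist1h4d lay at 246, 320 and 545 CPM in cycling cells, against 0, 41.3 and 132 CPM in 0-UMI cells (log2 fold change 2.63 ± 0.32, edgeR adjusted p = 9.56e-14). Hist1h2an lay at 37.9, 196 and 342 CPM against 0, 18.3 and 35.8 CPM. Hist1h2ak had 31 UMIs in cycling cells and 7 in 0-UMI cells, and Hist1h2ab 46 and 3. Hist1h2an, Hist1h2ak and Hist1h2ab reached the minimum of UMIs for testing only through the cycling cells. Their values are given as a description of single genes. The selecting genes include the histone genes Hist1h1a, Hist1h1b and Hist1h2ae, so the choice of cells itself favours rises of histone genes. The row that joins H2afv and H2afz, replication-independent variants, rose by 1.23 ± 0.21 with overlapping classes, at 341, 485 and 844 CPM against 94.1, 218 and 358 CPM. The row that joins H3f3a and H3f3b, the replication-independent H3 histones, did not pass (log2 fold change 0.26 ± 0.14, edgeR adjusted p = 0.562). Hmgn2, a nucleosome-binding protein, was too rare to be tested, with 17 UMIs in cycling cells and 10 in 0-UMI cells.

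**Figure D3:**
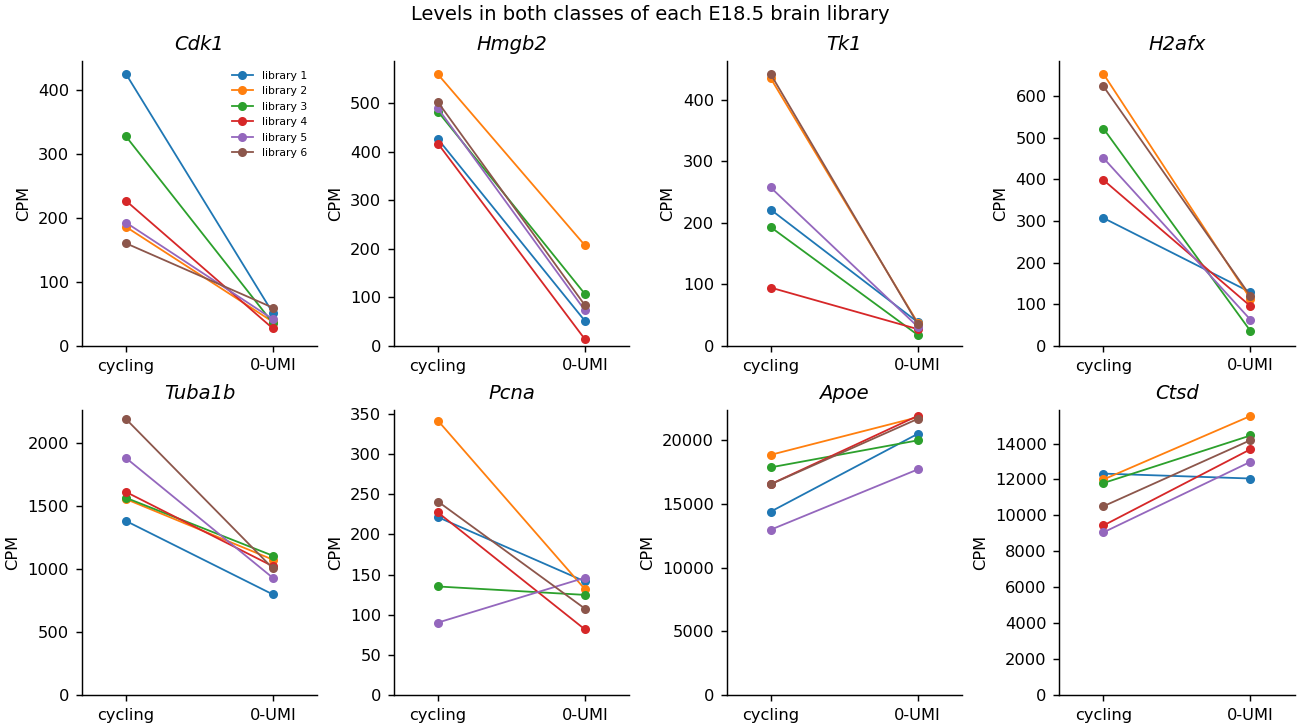
Level (CPM, vertical axes from 0) of 8 genes in cycling cells (left) and 0-UMI cells (right) of each of the 6 E18.5 libraries, 1 line a library. Cdk1, Hmgb2, Tk1, H2afx and Tuba1b are higher in cycling cells in every library, Pcna in 5 of 6, and Apoe is lower in every library and Ctsd in 5 of 6.

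Tubulins, the building blocks of the spindle, rose in 3 of 13 tested of 17 rows, and 0 fell. Tuba1b lay at 1381, 1587 and 2190 CPM in cycling cells, against 797, 1012 and 1104 CPM in 0-UMI cells (log2 fold change 0.74 ± 0.12, edgeR adjusted p = 6.67e-08). Tuba1c lay at 379, 607 and 804 CPM against 95.3, 149 and 282 CPM (1.72 ± 0.22), and Tubb5 at 1262, 1569 and 2190 CPM against 912, 983 and 1219 CPM (0.58 ± 0.12). None of the 3 overlapped between the classes. Tubb2a, another beta tubulin, and Stmn1, which destabilises microtubules, did not pass, with log2 fold changes of 0.27 ± 0.22 and 0.93 ± 0.50.

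Among cyclins, their inhibitors and E2F factors, 1 of 12 tested of 32 rows rose and 0 fell. This was Cdkn2c, an inhibitor of the kinases that start S phase, at 133, 148 and 251 CPM in cycling cells, against 0, 14.1 and 38.6 CPM in 0-UMI cells (log2 fold change 3.17 ± 0.52, edgeR adjusted p = 2.05e-07). The classes did not overlap, but with 53 UMIs in cycling cells and 7 in 0-UMI cells the gene was tested only because of its level in cycling cells. Of the 9 genes of this list that reach the minimum at their 0-UMI level, 0 passed. Cdk4, the partner of D-type cyclins, lay at 249, 297 and 342 CPM against 123, 228 and 320 CPM, a difference short of the threshold (edgeR adjusted p = 0.639). Ccnd1, a D-type cyclin, lay at 34.1, 63.3 and 77.2 CPM against 35.9, 64.9 and 107 CPM. The row of Ccnd2 held 2 UMIs in cycling cells and 3 in 0-UMI cells, and Ccnd3 0 and 1, so neither was tested. None of 4 tested genes of the p53 and DNA damage list passed, Bax, which promotes cell death, included.

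Outside these lists 20 genes rose. Ran, the GTPase that guides spindle assembly and nuclear transport, lay at 361, 417 and 603 CPM in cycling cells, against 146, 205 and 334 CPM in 0-UMI cells (log2 fold change 0.90 ± 0.22, edgeR adjusted p = 0.00271). The Hnrnpa2b1 row, an RNA-binding protein, was the 1 call among 39 tested splicing genes (0.53 ± 0.13, edgeR adjusted p = 0.00274). Rad21, a cohesin subunit that holds sister chromatids together, was picked from the 20 after its values were seen. It lay at 93.2, 258 and 362 CPM against 17.8, 69.0 and 90.0 CPM, with no overlap.

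Genes of microglial function were lower in cycling cells by small amounts. The lysosome and phagocytosis sum lay at 84436, 91347 and 101821 CPM in cycling cells, against 100366, 108550 and 116088 CPM in 0-UMI cells, lower in each of the 6 libraries although the ranges touch. Of 38 tested of 43 rows 8 fell and 0 rose, and the median log2 fold change was -0.24. The homeostatic sum lay at 54728, 59687 and 64244 CPM against 63392, 67936 and 72705 CPM, also lower in each library. Of 27 tested of 28 rows 7 fell and 0 rose, with a median of -0.27. Cst3 and Tyrobp are in both counts, so 13 genes fell in all. All 13 had the same direction under each alternative, but DESeq2, limma and the fit without the replicate block each called only 3 of them, Apoe, Ctsd and Cst3, and scaling by library totals called 4. After a single draw that thinned each cell to 600 UMIs and set the classes anew, 10 of the 13 passed. That fit also moved the median of all tested genes to -0.15, which favours falls. In cells of at least 1000 UMIs 5 of the 13 passed, and in cells of at least 300 UMIs 11. The filterByExpr minimum kept 7, and RLE size factors and sums per plate 8 each. A cut at 3 selecting UMIs and a minimum of 10 UMIs per gene each kept 13. Leaving out 1 library kept from 5 (without replicate 4 or 6) to 10 (without replicate 1) of the 13 calls, with 6 without replicate 2, 7 without replicate 3 and 8 without replicate 5.

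Apoe, the lipid carrier, lay at 12982, 16558 and 18866 CPM in cycling cells, against 17719, 21102 and 21929 CPM in 0-UMI cells, lower in each library (log2 fold change -0.42 ± 0.07, edgeR adjusted p = 2.34e-07). Ctsd, a lysosomal protease, lay at 9054, 11153 and 12323 CPM against 12051, 13932 and 15532 CPM, lower in 5 of 6 libraries (-0.41 ± 0.07). For Cst3, a secreted protease inhibitor, the values were 11295, 11831 and 15043 CPM against 13942, 15146 and 17097 CPM (-0.36 ± 0.07). The classes overlapped for each of these. Gas6, a bridge between dying cells and phagocytes, fell by 0.56 ± 0.12, although it was higher in cycling cells in 2 of 6 libraries. Ltc4s, leukotriene C4 synthase, fell by 0.48 ± 0.13 with no overlap, Slc2a5, a fructose transporter, by 0.69 ± 0.19 and Sparc, a matrix protein, by 0.36 ± 0.09. Lgmn, another lysosomal protease, did not pass (log2 fold change -0.17 ± 0.08, edgeR adjusted p = 0.394).

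Several genes by which microglia are recognised did not pass. Tmem119 lay at 985, 1482 and 2051 CPM in cycling cells, against 1487, 1687 and 1878 CPM in 0-UMI cells (log2 fold change -0.27 ± 0.11, edgeR adjusted p = 0.291). Sall1, the transcription factor of microglial identity, lay at 141, 402 and 528 CPM against 311, 393 and 459 CPM, and P2ry12, the purine receptor, at 20.1, 178 and 270 CPM against 95.6, 153 and 245 CPM. Csf1r lay at 6604, 7173 and 7895 CPM against 7164, 8138 and 8640 CPM (-0.20 ± 0.08, edgeR adjusted p = 0.175). Of the genes of the sort gate, Ptprc (CD45), Itgam (CD11b) and Cx3cr1 had log2 fold changes of 0.24 ± 0.28, -0.32 ± 0.14 and -0.25 ± 0.23, and none passed. None of 20 tested identity transcription factors, 16 growth factor receptors and ligands, 53 ribosomal proteins, 29 translation factors, 63 respiratory chain genes, 9 glycolysis genes or 6 interferon genes passed. Misses of the threshold do not show that the classes are alike in these genes.

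The cells of both classes carried the markers of microglia. All 9 microglia markers were detected in both, at summed levels from 11977 to 16939 CPM in cycling cells and from 14927 to 16097 CPM in 0-UMI cells. Of 7 markers of border or yolk sac macrophages, 6 were detected in cycling cells (124 to 542 CPM) and 5 in 0-UMI cells (93.9 to 356 CPM). Of 9 monocyte and granulocyte markers, 3 were detected in cycling cells (90.2 to 643 CPM) and 5 in 0-UMI cells (20.9 to 1040 CPM), with Ccr2, S100a8, S100a9 and Ngp at 0 in both. Mpo, another of the 9, lay at 0, 229 and 603 CPM in cycling cells, against 10.4, 170 and 920 CPM in 0-UMI cells. Neuronal Tubb3, Dcx and Snap25, glial Sox2, Fabp7, Olig1 and Gfap and endothelial Cldn5 and Flt1 were at 0 in both classes. Other markers of these cell types were detected. The neuron sum lay at 0 to 31.1 CPM in cycling cells and 0 to 53.4 CPM in 0-UMI cells. The neural progenitor or glia sum, which includes Nes, lay at 68.2 to 360 and 68.1 to 206 CPM. The vessel sum, which includes Pecam1, lay at 38.6 to 152 and 47.8 to 116 CPM. Erythroid markers lay at 0 to 522 and 0 to 5963 CPM. None of the 5 tested genes of the macrophage list and 5 of the monocyte list passed.

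Immediate early and chemokine genes gave 1 call each, both falls. The row of Ccl3, a chemokine, lay at 739, 921 and 1150 CPM in cycling cells, against 1159, 1515 and 1807 CPM in 0-UMI cells, with no overlap (log2 fold change -0.77 ± 0.12, edgeR adjusted p = 8.68e-08). The row of its neighbour Ccl4 lay at 75.8, 108 and 528 CPM against 108, 235 and 463 CPM, but fell short of the threshold (-0.91 ± 0.28, edgeR adjusted p = 0.0552). The row of Junb, a subunit of the AP-1 factor, lay at 477, 550 and 804 CPM against 803, 904 and 1179 CPM (-0.67 ± 0.15, edgeR adjusted p = 0.000354), while its partner Fos (-0.15 ± 0.12) and relative Jun (-0.0027 ± 0.14) did not pass.

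The 8 largest single-symbol falls that were lower in at least 5 libraries were mostly of rare transcripts. Gnl1, a GTP-binding protein, had 5 UMIs in cycling cells and 33 in 0-UMI cells, Bnip3, a mitophagy receptor, 10 and 45, Jup, a junction protein, 11 and 51, and Plcb2, a phospholipase, 14 and 53. Their edgeR adjusted p-values ran from 0.0249 to 0.0472, and DESeq2 called none of the 4. Gnl1, Bnip3 and Jup reached the minimum of UMIs for testing only through the 0-UMI cells. At their level in cycling cells they would have missed it, so their falls are given as a description of single genes. Tbxas1, thromboxane synthase, lay at 155, 220 and 258 CPM in cycling cells, against 283, 384 and 527 CPM in 0-UMI cells, with no overlap (log2 fold change -0.93 ± 0.23, edgeR adjusted p = 0.00362). Pold4, a small DNA polymerase subunit, Eif4g3, a translation initiation factor, and Pld3, a lysosomal nuclease, fell by 1.00 ± 0.30, 0.88 ± 0.27 and 0.78 ± 0.18. The edgeR adjusted p-values of Pold4 (0.0406) and Eif4g3 (0.0479) lie near the threshold, and each was higher in cycling cells in 1 library. DESeq2 called none of these 3 genes, nor Tbxas1.

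Hemoglobin genes had the largest fitted falls, and these rest on 1 library. Hba-a2 had 21 UMIs in cycling cells and 284 in 0-UMI cells, and Hbb-b1 12 and 224. In replicate 6, 1 well of a 0-UMI cell held 637 of the 793 hemoglobin UMIs of that class, and all 4 wells with 10 or more such UMIs were 0-UMI cells of that library. Without these 4 wells the log2 fold change of Hba-a2 was 0.31 and that of Hbb-b1 -0.65, and neither passed.

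The share of cycling cells was compared with the other ages of the brain, which asks how division of microglia changes with development. Each cell was brought to 600 UMIs by the expected outcome over all ways of drawing them, since deeper cells reach 2 UMIs more often. Cells left out for holding fewer than 600 UMIs numbered 302 of 1140 at E18.5, 541 of 760 in the adult and 83 of 760 at E12.5. At equal depth the share of cells with 2 or more UMIs of the 13 genes was 18.2% ± 3.12 (SD, n = 6 libraries) at E18.5 and 6.86% ± 2.98 (n = 4) in the adult. The difference was 11.3 percentage points (two-sided exact permutation test over libraries, p = 0.00952, adjusted p = 0.0190), the smallest p that 6 against 4 libraries can give. Every E18.5 library (14.7% to 22.3%) stood above every adult library (2.55% to 8.95%). With the 10 mitotic genes alone the means were 12.2% at E18.5 and 1.19% in the adult, so the adult share depends on the genes chosen. Shares taken per plate, 3 against 2, differed by 11.6 points but cannot pass the threshold (exact p = 0.200). Adult cells shared the gate and the sequencing batch of the E18.5 cells.

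Against E12.5 the same share was 18.2% ± 3.12 at E18.5 (n = 6) and 23.0% ± 4.04 at E12.5 (n = 4), a difference of -4.80 points that did not pass (two-sided exact permutation test, p = 0.0857). The ranges overlapped, from 14.7% to 22.3% at E18.5 and from 20.2% to 28.9% at E12.5. This call depends on the settings: it passed without thinning (-20.9 points, 28.4% at E18.5 and 49.2% at E12.5), with a cut at 1 UMI, with the 10 mitotic genes alone, without the joined Plk1 row and without E18.5 replicate 3 (-5.62 points). It shrank to -1.23 points with a cut at 3 UMIs (exact permutation p = 0.495) and to -1.82 points after thinning to 300 UMIs (exact permutation p = 0.238). The E12.5 cells were deeper, with median totals in cycling cells of 1189 UMIs at E18.5 and 2288 at E12.5. Gate and sequencing batch changed between these ages, and their part cannot be told apart from that of age.

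**Figure D4:**
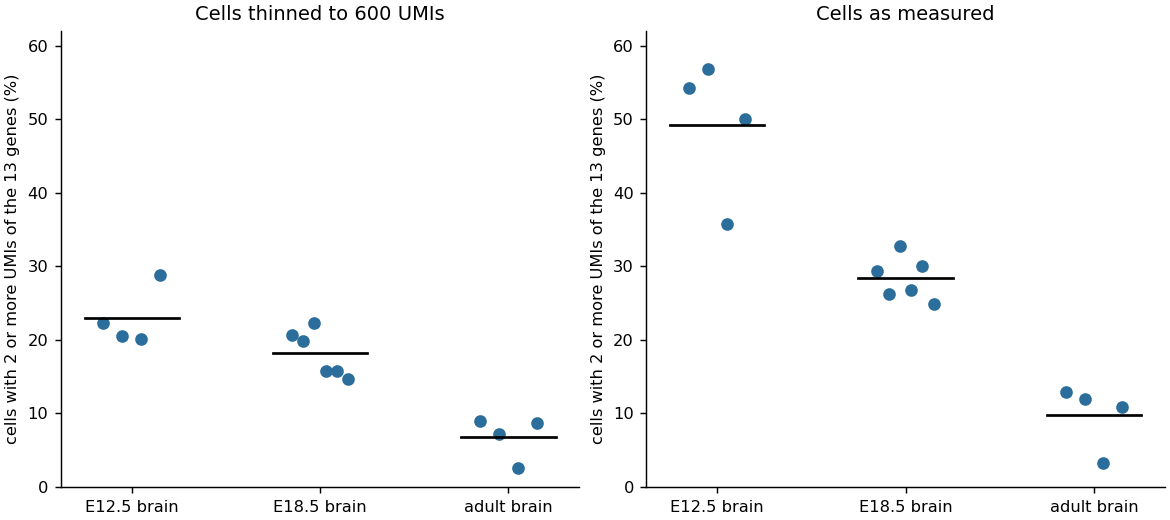
Share of brain cells with 2 or more UMIs of the 13 genes (vertical axes, percent) by age, 1 point a library and bars at the means, with cells brought to 600 UMIs (left) and as measured (right). The 6 E18.5 libraries lie between 14.7% and 22.3% at equal depth, above the 4 adult libraries at 2.55% to 8.95%, and they overlap the 4 E12.5 libraries at 20.2% to 28.9%.

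The same comparison of classes was made within the E12.5 brain, with 335 cycling and 198 0-UMI cells from other libraries. There 83 of 5469 tested genes were higher in cycling cells (1.52%) and 80 lower (1.46%). Of the genes called higher, 44 were shared, which is 59.5% of those at E18.5 and 53.01% of those at E12.5. Of the genes called lower 14 were shared, 42.4% and 17.5% of the E18.5 and E12.5 calls. In all, 202 genes tested at both ages were called at either, and 187 of these had the same sign. These genes were chosen by their calls, 58 of them at both ages, which favours a shared sign. The share with the same sign over all genes tested at both ages was not counted. The 187 are therefore no measure of agreement between the ages. The G2 and mitosis sum at E12.5 lay at 5644, 6272 and 6673 CPM in cycling cells, against 1726, 2119 and 2590 CPM in 0-UMI cells, with no overlap. The lysosome list fell in 8 of 38 tested at E18.5 and 16 of 37 at E12.5. Cdk1 had log2 fold changes of 2.43 ± 0.36 at E18.5 and 2.07 ± 0.33 at E12.5, H2afx 2.29 ± 0.26 and 2.34 ± 0.25, and Apoe -0.42 ± 0.07 and -0.51 ± 0.05.

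Differences between the ages were tested as an interaction of class and age. Of 6817 genes tested, 1 passed (0.0147%), none of the cell division lists had a call, and 300 genes had an unadjusted p under 0.05 (edgeR). DESeq2 called 0. The gene was Isyna1, which makes inositol phosphate. At E18.5 it lay at 51.1, 76.7 and 124 CPM in cycling cells, against 71.2, 172 and 358 CPM in 0-UMI cells (log2 fold change -1.05 ± 0.36, not passed), while it was higher in cycling cells at E12.5 (0.80 ± 0.23, edgeR adjusted p = 0.0273). The difference of differences was -1.96 ± 0.43 (edgeR adjusted p = 0.0391). Without E18.5 replicate 1, 2 or 5 no gene passed, without replicate 6 there were 4, and without E12.5 replicate 4 the 1 call was positive. Ckap2l (4.45 ± 0.49 at E18.5 and 1.49 ± 0.41 at E12.5) had an interaction of 2.98 ± 0.79 that did not pass (edgeR adjusted p = 0.171).

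**Figure D5:**
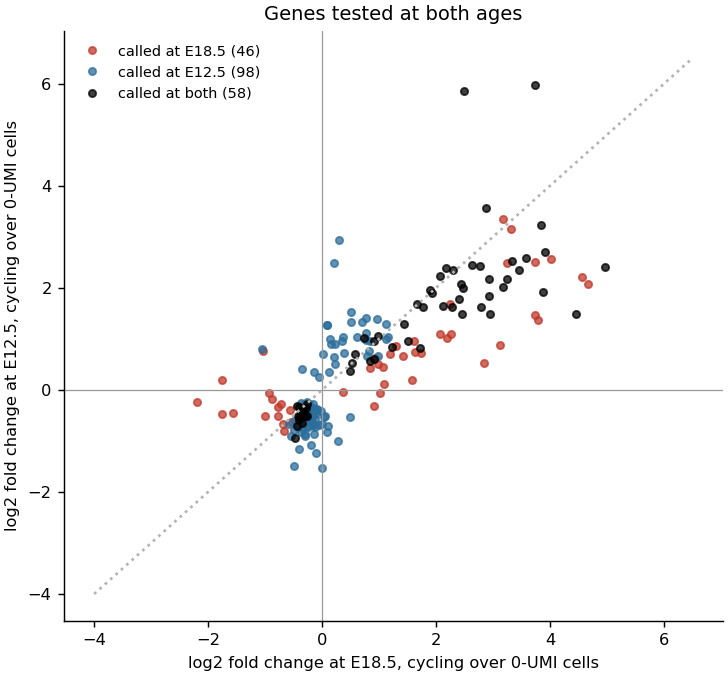
Log2 fold change of cycling over 0-UMI cells at E18.5 (horizontal axis) and at E12.5 (vertical axis) for the 202 genes tested at both ages and called at either, 1 point a gene. Black points were called at both ages (58), red ones at E18.5 (46) and blue ones at E12.5 (98), and the dotted line marks equal values.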

How the data were processed

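Myeloid cells were sorted from yolk sac and brain and profiled by MARS-seq in 18 libraries. The authors deposited whole-number UMI counts per gene and well, not normalized, with an annotation of wells. Per the submitters' processing notes, bcl2fastq 2.15.0.4 and build mm9 were used. Neither the aligner nor the UMI collapsing is named in the labels. The table has 27297 gene rows, of which 2109 join several symbols, and its highest count is 256, so the most abundant transcripts may be capped.

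Counts were summed per library and class without the 13 selecting rows. Genes with at least 30 UMIs over both classes were tested with edgeR 4.0.16 (TMM, robust quasi-likelihood F-test) in R 4.3.3 with library as block, since both classes come from the same libraries. The step was tested on simulated data. Standard errors were derived from the fold change and the F statistic. Alternatives used DESeq2 1.42.0 and limma 3.58.1 (pseudocount of 10 CPM). Shares were tested by exact permutation in scipy 1.17.1, adjusted over 2 comparisons. The expected share replaced a single random draw after draws had fallen on both sides of the threshold. No doublet caller was run on wells with 1 sorted cell. Intervals cover counting error only.

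The cycling cells, gene lists and tests were chosen with earlier results of these data known. Genes were named by a rule that took, from the called genes with 1 symbol that moved alike in 5 or more libraries, the 12 with the greatest rise and the 8 with the greatest fall, and also up to 4 called genes and 1 gene that did not pass per list, a fixed set of cell cycle and microglia genes, and the 5 smallest interaction p-values. Not every gene of this rule is described.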

Additional observations from a re-analysis of the deposited data

Results flagged for a closer look

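Among the 49 named genes that were called, 4 had 1 library far from the other 5 in the log2 ratio of cycling to 0-UMI cells (20 CPM added to both). Chance alone flags about 1 in 20 groups. For Hbb-b1, replicate 6 stood at -3.68, against -1.36 to 0 in the others, and that library holds the well rich in hemoglobin. For Hist1h2an, replicate 4 stood at 0.29, against 2.41 to 2.97. For Ran, replicate 1 stood at 0.28, against 0.97 to 1.20. For Tbxas1, replicate 2 stood at -1.64, against -0.85 to -0.54. Isyna1 was flagged because its difference between the classes was not the same at E18.5 and E12.5, with an interaction of -1.96 on the log2 scale.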

How the results depend on the processing

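Of 107 called genes, the count moved to 54 with DESeq2, 69 in cells of at least 1000 UMIs, 49 with filterByExpr (1055 genes tested), 67 with no replicate block and 36 when only cells with histone UMIs and no mitotic UMIs counted as cycling. That last fit, on few cells, moved the median of all genes to -0.87 on the log2 scale, and there the joined H2afv and H2afz row (-0.78), H2afx (-0.66), Ran (-0.33), Tuba1b (-0.65), Tubb5 (-0.90) and the Hnrnpa2b1 row (-0.51) turned negative. Of these rows Tubb5 alone lay below that median. Hba-a2 turned to 0.31 without the hemoglobin-rich wells. Leaving out 1 library at a time gave 73 to 89 calls. Higher against lower calls were 74 and 33, but 86 and 15 when scaled by totals, 79 and 50 at a minimum of 10 UMIs, and 30 and 47 after thinning to 600 UMIs, which moved the median of all genes to -0.15. Of the 49 called named genes 20 kept the call in every alternative that tested them. The interaction gave 1 gene, 0 with DESeq2, 0 with RLE factors, 4 at a minimum of 10 UMIs and 0 to 4 without 1 library. The share at E18.5 against E12.5 (-4.80 points) passed without thinning (-20.9), at 1 or more UMIs (-7.38), with 10 mitotic genes (-5.31), without the Plk1 row (-4.95) and in 1 random draw (-5.86), shrank to -1.23 at 3 or more UMIs and -1.82 when thinned to 300 UMIs, and ran from -5.73 to -2.83 without 1 library. Against the adult (11.3 points) shares per plate gave 11.6 and missed, and leaving out 1 library gave 9.88 to 12.0. The alternatives without the Plk1 row, without the hemoglobin-rich wells and with 1 random draw were chosen after seeing the data. The cause of these changes was not tested. With about 1000 UMIs per cell, genes under 30 UMIs stayed untested.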
